A study of Mus musculus with 18 samples.

Results

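The comparison described here is a difference of differences between tissues. For each gene, the change between mice prone to a high-fat diet (HP) and mice resistant to it (HR) in epididymal white adipose tissue (eWAT, the visceral fat depot beside the epididymis) was set against the same change in liver. Genes were kept where at least 3 of the 6 HP and HR libraries of each tissue reached 1 FPKM, a unit in which sequenced fragments are divided by transcript length and by the size of the library. This left 9726 of the 23474 genes in the table, and the comparison used 12 of the 18 libraries. The groups were eWAT HP, eWAT HR, liver HP and liver HR, with 3 libraries each, all from male C57BL/6J mice of 17 weeks. The strain tag of the labels reads C56BL/6J. Mice were housed singly and began their diets at 5 weeks of age, for 12 weeks, in groups of 10. The labels describe HP and HR animals as prone and resistant on a high-fat diet, and the normal-diet libraries were not part of the comparison. The labels do not say how HP and HR mice were told apart, whether a library is 1 animal, or whether same-numbered eWAT and liver libraries share an animal. The p-values therefore reflect only how far these samples varied, and some of that variation may be technical.

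White adipose tissue stores fatty acids as triglyceride in a large droplet within each adipocyte, and in obesity macrophages gather around the fat cells. Liver takes up fatty acids that fat tissue releases, oxidises or exports them, and deposits triglyceride in smaller droplets when supply outruns both routes. Many genes of lipid storage, sterol synthesis and plasma protein secretion are used by both tissues, and a difference between groups of mice can be shared by the tissues, seen in only 1 of them or opposed.

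Values were compared as log2(FPKM + 1), a scale that understates the change of low genes. The tissue difference is HP minus HR in eWAT, less HP minus HR in liver. A positive value means that HP stood higher relative to HR in eWAT than it did in liver. A gene was called at an adjusted p under 0.05 (limma, two-sided, Benjamini-Hochberg over the 9726 genes). Adjusted p-values within a tissue come from limma over the same genes. As background for statements on overlap, all HP libraries stood above all HR libraries in 18.4% of the genes in eWAT and below them in 5.46%. These shares were 28.1% and 20.2% in eWAT without HR 2, and 17.3% and 16.7% in liver.

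The eWAT library HR 2 stood apart from the rest. Its median correlation with the other eWAT libraries was 0.637, against 0.950 to 0.970 for the other 5 eWAT libraries and 0.968 to 0.983 for the 6 liver libraries. Prm1, Prm2, Tnp1 and Tnp2, genes of spermatids, summed to 11231 FPKM in HR 2 and 1738 FPKM in eWAT HP 1, and to at most 24.2 FPKM in the other 4 eWAT libraries. Epididymal genes summed to 1275 FPKM in eWAT HP 2, of which Crisp1 made up 1172 FPKM and Adam7 103 FPKM. No other epididymal marker exceeded 0.403 FPKM in that library. Skeletal muscle genes summed to 120 FPKM in liver HP 2 and 25.7 FPKM in liver HP 3. In the other liver libraries muscle genes summed to at most 0.641 FPKM. Hepatocyte markers summed to 17255 to 48405 FPKM in HP and 39354 to 45842 FPKM in HR liver, against at most 5.53 FPKM in these eWAT libraries. Alb and mt-Co1 are listed at 0 in liver HP 3, where the lowest other liver library had 22791 FPKM for Alb and 29610 FPKM for mt-Co1, and neither was called. FPKM is a share of a library, so foreign RNA lowers the values of the tissue's own genes. The median standard deviation within a group was 0.427 on the log2 scale in eWAT with HR 2, 0.162 without it, and 0.179 in liver. Counts of all genes are given over 12 libraries and over the 11 without HR 2, which leave 2 libraries in the eWAT HR group. Values and counts of list members are over 11 libraries unless 12 are named.

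Over 12 libraries, 12 genes were called, 7 positive and 5 negative, which is 0.123% of the genes tested (0.0720% and 0.0514% by sign). In all, 1214 genes reached an unadjusted p under 0.05. Over 11 libraries 1120 genes were called, or 11.5% of those tested, with 606 positive (6.23%) and 514 negative (5.28%). Counts of list members below stand against these shares. All 12 genes of the larger set of libraries were called again with the same sign, and 1082 of the 1120 genes had that sign over 12 libraries too. The share of positive calls over 11 libraries depended on the scaling, with 54.1% positive as deposited, 71.7% after rescaling libraries to an equal FPKM sum, 41.5% after shifting them to an equal median ratio and 37.6% after quantile normalization. The median tissue difference of all genes was 0.06 as deposited and 0.21 after rescaling to an equal sum, which was the only scaling over 11 libraries that moved it by more than 0.1. Each value below can be read against that shift.

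**Figure D1:**
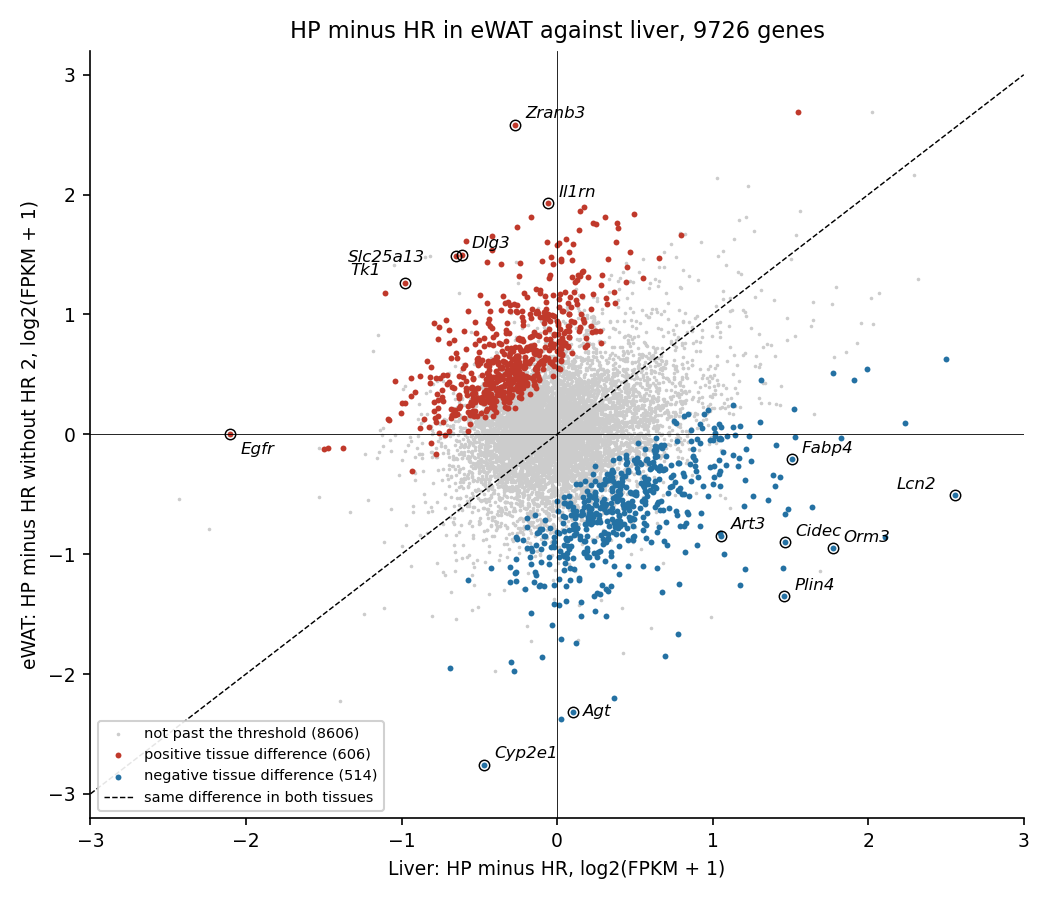
HP minus HR in liver (horizontal axis) and in eWAT without HR 2 (vertical axis), both as log2(FPKM + 1), with a point for each gene tested and called genes in colour. Called genes lie away from the diagonal on which both tissues change alike, and 3 genes that were not called fall outside the axes.

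The calls had several shapes. Counting an HP minus HR value of at least 0.5 in size on the log2 scale as a change, 580 of the 1120 genes changed in eWAT alone, 230 in liver alone and 95 in opposite directions in the tissues. Another 9 changed in the same direction by different amounts, and 206 reached 0.5 in neither tissue. Over all 9726 genes, 15.1% changed in eWAT alone, 10.8% in liver alone and 1.26% in opposite directions. Of the 95 opposed genes, 30 were higher in HP in eWAT and lower in HP in liver, and 65 were the other way round. Within tissues, 1397 genes (14.4%) were called between HP and HR in eWAT over 5 libraries, 816 higher (8.39%) and 581 lower (5.97%) in HP. In liver 1068 genes (11%) were called, 755 higher (7.76%) and 313 lower (3.22%) in HP. With HR 2 kept, 2 genes (0.0206%) were called in eWAT, both higher in HP, while 877 had an unadjusted p under 0.05. The 2 genes were the near-identical ribonuclease genes Rnaset2a and Rnaset2b (2.69 and 2.65, adjusted p = 0.0318 for both), between which fragments can be split. Of the 1120 genes, 629 were also called in eWAT and 301 in liver, 60 of them in both, and 55 of those 60 had opposite signs. A call requires the tissue changes to differ, so it favours opposite signs, and the counts by shape are partly set by that selection.

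The number of calls rested on single libraries. Without eWAT HR 1, which leaves 1 eWAT HR library assumed to vary like the other groups, 130 genes were called, 127 of them among the 1120. The count was 440 without eWAT HP 3, 454 without liver HR 2, 595 without liver HP 2 and 667 without liver HR 3. Leaving out any of the other 6 libraries gave 754 to 1292 calls. Without liver HP 2 and HP 3 together, which carried muscle transcripts and leave 1 HP liver, 109 genes were called. With normal-diet libraries in the fit 3 of the 1120 calls remained, and 745 when eWAT ND 1 was also left out, a choice made after seeing the data. In eWAT ND 1, Prm1, Prm2, Tnp1 and Tnp2 summed to 92413 FPKM, against 128 FPKM in ND 2 and 2282 FPKM in ND 3. Epididymal genes summed to 22223 FPKM in ND 1, against 8.60 FPKM in ND 2 and 15.5 FPKM in ND 3. The part of this RNA in the change of calls was not tested. Of the called genes described, Agt, Dlg3 and Orm3 alone kept the call under every alternative. With single libraries left out and nothing else changed, a core of 120 genes, 60 of each sign, stayed called whichever of the 11 it was. Such genes are described below as called throughout. Another 262 genes lost the call only without eWAT HR 1.

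**Figure D2:**
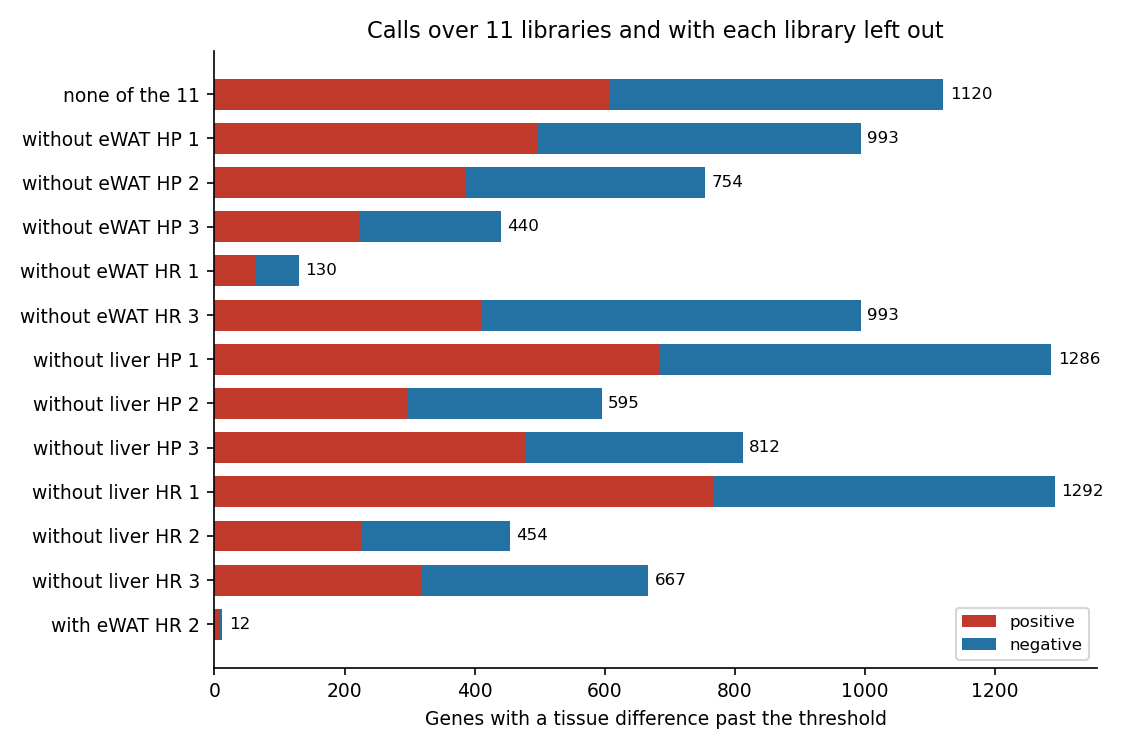
Number of genes with a called tissue difference as each of the 11 libraries is left out in turn, positive and negative calls apart. The count is 1120 with all 11 libraries, 130 without eWAT HR 1, and 12 in the last bar, where eWAT HR 2 is added.

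The 7 positive genes of the 12-library comparison were higher in HP than in HR fat. Zranb3, a helicase that works at stalled replication forks, had 53.6, 48.3 and 84.8 FPKM in HP eWAT and 8.05, 9.06 and 10.6 FPKM in HR eWAT. In liver it had 0.745, 1.203 and 0.980 FPKM in HP and 1.25, 1.11 and 1.82 FPKM in HR. The groups were far apart in fat and overlapped in liver, and the tissue difference was 2.86 over 12 libraries (SE 0.32, adjusted p = 0.00990). Tk1, the thymidine kinase that salvages a DNA precursor, had 16.0, 12.98 and 14.9 FPKM in HP eWAT and 5.34, 3.91 and 5.65 FPKM in HR eWAT. Its liver values were 10.9, 13.3 and 8.40 FPKM in HP and 22.7, 19.5 and 24.4 FPKM in HR. HP stood above HR in every eWAT library and below it in every liver library, which gave a tissue difference of 2.38 (SE 0.28, adjusted p = 0.00990).

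Slc25a13 and Dlg3 were opposed between tissues in the same way. Slc25a13, the mitochondrial aspartate-glutamate carrier citrin, had 8.69, 8.39 and 11.1 FPKM in HP eWAT and 2.45, 2.06 and 2.94 FPKM in HR eWAT. In liver, where it is far more abundant, it had 68.7, 50.8 and 51.0 FPKM in HP and 74.1, 98.7 and 95.8 FPKM in HR. Groups were separate in both tissues, with a tissue difference of 2.23 (adjusted p = 0.0122). Dlg3, a scaffold protein of the membrane-associated guanylate kinase family, had 16.7, 15.7 and 22.1 FPKM in HP eWAT and 6.73, 5.99 and 4.83 FPKM in HR eWAT. Its liver values were 5.81, 4.74 and 5.22 FPKM in HP and 8.51, 8.48 and 8.67 FPKM in HR, and its tissue difference was 2.09 (adjusted p = 0.00990). Cdk18, a kinase related to the cyclin-dependent kinases, Qpct, which forms pyroglutamate at peptide ends, and Hmga1, a chromatin architectural protein, completed the positive genes. Their tissue differences were 1.97, 1.91 and 1.58 (adjusted p = 0.0317, 0.0468 and 0.0309). In fat all 3 were higher in HP, by 1.61, 1.49 and 1.33, with no overlap between the groups. In liver they were 0.36, 0.42 and 0.25 lower in HP, and none of these liver changes was called.

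**Figure D3:**
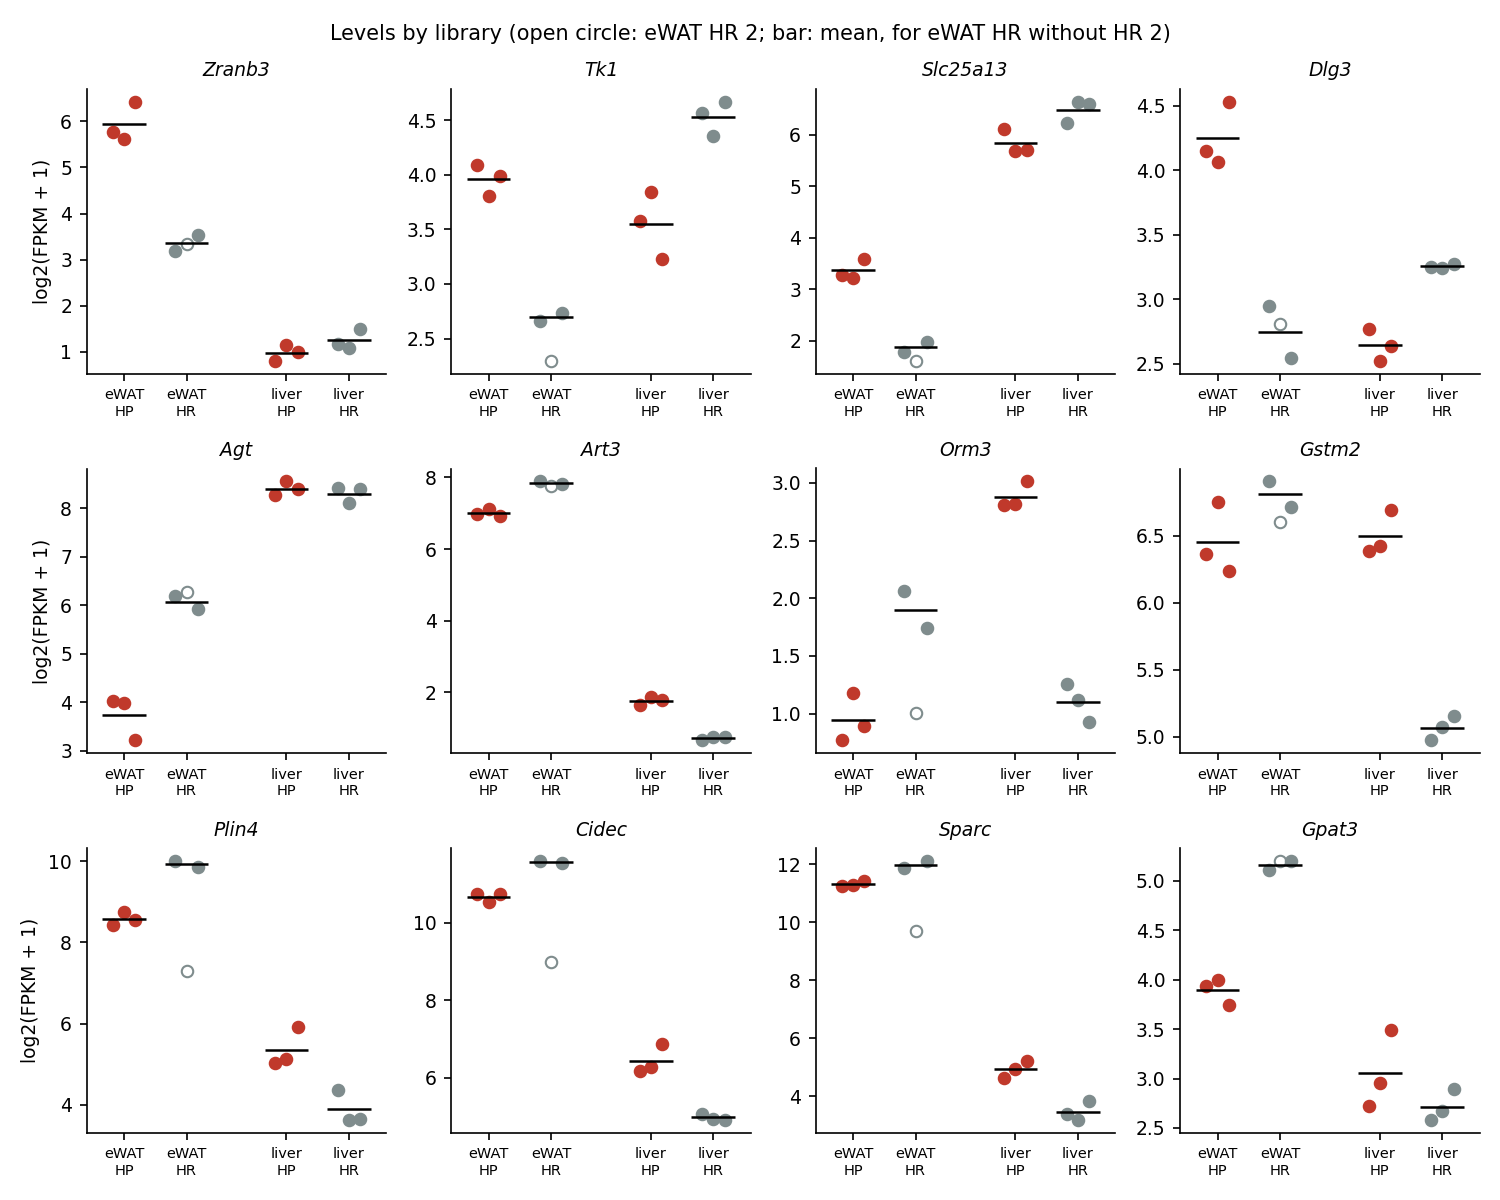
Levels as log2(FPKM + 1) in each HP (red) and HR (grey) library of eWAT and liver for 8 genes called over 12 libraries (Zranb3 to Gstm2) and for Plin4, Cidec, Sparc and Gpat3, with eWAT HR 2 as an open circle and bars at the group means, without HR 2 in eWAT HR. Zranb3 and Agt separate HP from HR in eWAT alone, Tk1, Slc25a13 and Dlg3 separate them in both tissues in opposite order, and HR 2 falls far below its group in Plin4, Cidec and Sparc.

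The 5 negative genes differed in shape. Agt encodes angiotensinogen, the precursor of angiotensin, and is made mainly by liver and also by fat. It had 15.4, 14.7 and 8.31 FPKM in HP eWAT and 72.1, 75.9 and 59.7 FPKM in HR eWAT. In liver it had 306, 373 and 333 FPKM in HP and 338, 273 and 333 FPKM in HR. HP fat held far less than HR fat, the liver groups overlapped, and the tissue difference was -2.48 (SE 0.32, adjusted p = 0.0163). Art3, a member of the ADP-ribosyltransferase family, had 126, 137 and 120 FPKM in HP eWAT and 235, 215 and 224 FPKM in HR eWAT. Its liver values were 2.15, 2.64 and 2.48 FPKM in HP and 0.583, 0.697 and 0.673 FPKM in HR. In liver Art3 passed the filter of 1 FPKM through the HP libraries alone, the group in which it is high. It was lower in HP fat and higher in HP liver, without overlap in either tissue (tissue difference -1.87, adjusted p = 0.00990).

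Cystm1, a small membrane protein, followed the pattern of Art3, with means of 22.9 ± 0.733 FPKM in HP eWAT and 38.1 ± 6.83 FPKM in HR eWAT (SD, n = 3 each). In liver it averaged 12.7 ± 3.67 FPKM in HP and 3.86 ± 1.097 FPKM in HR (SD, n = 3 each). Its tissue difference was -2.18 (adjusted p = 0.0490). Most of the difference lay in liver for Cystm1, and also for Gstm2 and Orm3, whose eWAT groups overlapped. Gstm2, a glutathione transferase of the mu class, had 82.8, 84.7 and 102 FPKM in HP liver and 30.4, 32.8 and 34.6 FPKM in HR liver. Its eWAT values overlapped, at 81.3, 107 and 74.4 FPKM in HP and 119, 95.9 and 104 FPKM in HR, and the tissue difference was -1.72 (adjusted p = 0.0317). Orm3, an orosomucoid or plasma acute phase glycoprotein, had 6.00, 6.03 and 7.07 FPKM in HP liver and 1.39, 1.17 and 0.904 FPKM in HR liver. Its eWAT values were 0.703, 1.27 and 0.860 FPKM in HP and 3.17, 1.00 and 2.34 FPKM in HR. These overlap through HR 2, and the tissue difference was -2.43 (adjusted p = 0.0309). HP 2 alone of the HP eWAT libraries reached 1 FPKM, so Orm3 passed the filter in eWAT mainly through HR. Orm and Gst genes have near-identical copies among which fragments can be split, so their single values are uncertain. All 12 genes stayed called over 11 libraries whichever library was left out.

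Genes of lipid storage had mostly negative tissue differences. Among 17 tested genes of triglyceride synthesis and lipolysis, 1 was called higher and 9 lower in HP in eWAT, and 4 higher and none lower in HP in liver. Among 12 tested lipid droplet proteins, 1 was called higher and 4 lower in eWAT, and 3 higher and none lower in liver. Of the 12 droplet proteins, 4 were called negative and 1 positive over 11 libraries, with a median tissue difference of -0.68. Of the 17 triglyceride genes, 7 were called negative and none positive, with a median of -0.58. The median of all genes was 0.06. Over 12 libraries limma called no gene of either list, 4 droplet genes and 2 triglyceride genes had an unadjusted p under 0.05, and the medians were -0.62 and -0.30.

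Plin4, a protein that coats lipid droplets, had 346, 427 and 375 FPKM in HP eWAT and 1024, 157 and 923 FPKM in HR eWAT. In liver it had 31.5, 33.8 and 59.0 FPKM in HP and 19.8, 11.4 and 11.6 FPKM in HR. The library of 157 FPKM is HR 2, and without it the groups were separate in both tissues and the tissue difference was -2.81 (SE 0.36, adjusted p = 0.00179). Cidec, which fuses droplets into larger ones, had 1693, 1465 and 1698 FPKM in HP eWAT and 3078, 503 and 2956 FPKM in HR eWAT. Its liver values were 71.8, 76.7 and 115 FPKM in HP and 32.7, 29.8 and 29.3 FPKM in HR. It showed the same opposed pattern over 11 libraries, with a tissue difference of -2.36 (SE 0.24, adjusted p = 9.66e-04). Over 12 libraries Plin4 and Cidec did not pass (adjusted p = 0.383 and 0.466).

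Mogat1, which makes diacylglycerol, was lower in HP fat and higher in HP liver (tissue difference -2.33, adjusted p = 0.00276). Fabp4, the fatty acid binding protein of adipocytes, had 35.7, 30.2 and 36.7 FPKM in HP liver and 10.8, 11.6 and 11.6 FPKM in HR liver. In eWAT it had 14495, 13621 and 12038 FPKM in HP and 17046, 3791 and 13910 FPKM in HR, so that its tissue difference of -1.71 lay mostly in liver (adjusted p = 0.00122). Gpat3, an acyltransferase at the start of triglyceride synthesis, Ces1d, a carboxylesterase that acts on triglyceride, and Plin5, another droplet coat protein, owed theirs mostly to fat. Their tissue differences were -1.61, -1.44 and -1.60 over 11 libraries. Gpat3 was low in all 3 HP eWAT libraries, with 14.3, 14.9 and 12.4 FPKM against 33.6, 35.7 and 35.8 FPKM in HR, and HR 2 lay between the other HR libraries. Its 12-library difference was -1.62 (adjusted p = 0.0952). Plin4, Cidec, Mogat1, Fabp4, Gpat3, Ces1d and Plin5 stayed called whichever of the 11 libraries was left out.

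Plin2, the droplet coat protein that liver and macrophages also use, went the other way, with a tissue difference of 0.83 (adjusted p = 0.0334). Cideb and G0s2, an inhibitor of the lipase Pnpla2, were negative (-1.14 and -1.23) but lost the call without several libraries. The droplet count of 5 was 3 without eWAT HP 1, eWAT HP 3, eWAT HR 1, liver HP 2, liver HP 3 or liver HR 2. The triglyceride count of 7 was 4 without eWAT HP 3, liver HR 2 or liver HR 3, and 3 without eWAT HR 1.

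The sum of adipocyte markers was higher in HP liver through Fabp4 and Cidec, which are themselves among the genes above. The 6 adipocyte markers summed to 107 to 152 FPKM in HP liver and 40.9 to 43.5 FPKM in HR liver, and nearly all of this was Fabp4 and Cidec. The defining marker Adipoq was at 1.40, 0 and 0.174 FPKM in HP liver and at 0 in the 3 HR livers. Plin1 and Lep were at 0.399 and 0.723 FPKM in liver HP 1, and at 0 in liver HP 2, liver HP 3 and the HR livers. Retn was at 0.479, 0.0901 and 0.0819 FPKM in HP liver and at 0 in the HR livers. In eWAT the sum was 16342 to 18724 FPKM in HP, and 24032, 5042 and 20713 FPKM in HR. The part of adipocyte RNA in the liver values of Fabp4, Cidec and Plin4 was not tested. In bulk tissue, fewer cells of a type and less RNA per cell cannot be told apart.

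Genes that mark the adipocyte state showed the same direction, but some of the called genes are on other lists too. Cidec is also on the droplet list, Fabp4 on the fatty acid uptake list and Cfd on the acute phase list. Of 15 tested genes of adipocyte identity, 7 were called negative and 1 positive, with a median tissue difference of -0.72 over 11 libraries and -0.10 over 12. Their median change was -0.79 in eWAT and 0.01 in liver. Pparg, the nuclear receptor that directs fat cell formation, had 63.3, 62.7 and 51.8 FPKM in HP eWAT and 85.6, 18.6 and 81.2 FPKM in HR eWAT. Its liver values were 13.3, 15.3 and 17.1 FPKM in HP and 12.7, 7.64 and 7.02 FPKM in HR. Without HR 2 it was lower in HP fat and higher in HP liver, with a tissue difference of -1.21 (adjusted p = 0.0198). Cfd, the complement protease adipsin, and Adrb3, the adrenergic receptor of fat cells, were lower in HP fat by 2.38 and 1.97, with tissue differences of -2.40 and -1.69. These 3 genes lost the call without eWAT HR 1 and at least 2 further libraries. The identity count of 8 was 2 without eWAT HP 3 or eWAT HR 1, 3 without liver HR 2 and 5 without liver HP 2.

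Genes of fatty acid synthesis were mixed. Of 20 tested, 4 were called negative and 1 positive. Scd1, the desaturase that makes oleic acid, had 3389, 4571 and 3545 FPKM in HP eWAT and 9094, 1695 and 9894 FPKM in HR eWAT. In liver it had 2100, 1238 and 1958 FPKM in HP and 812, 1481 and 1035 FPKM in HR. The liver groups overlapped, fat was separate without HR 2, and the tissue difference was -1.997 (adjusted p = 0.00890), called throughout. Thrsp, a lipogenic gene that responds to thyroid hormone, Acacb, an acetyl-CoA carboxylase, and Elovl5, an elongase of polyunsaturated fatty acids, had tissue differences of -1.58, -1.16 and -0.98. Each lost the call without eWAT HR 1, and Thrsp without other libraries as well. Fasn, the fatty acid synthase, had -0.23 (adjusted p = 0.703), and Srebf1, a regulator of lipogenesis, had -0.35 (adjusted p = 0.481). The count of 5 fell to 3 without eWAT HP 3, eWAT HR 3 or liver HR 2 and to 1 without eWAT HR 1, and the list median of -0.20 was 0.09 over 12 libraries.

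Among 31 genes of fatty acid oxidation, 7 were negative and 1 positive, with a median of -0.19 over 11 libraries and 0.39 over 12. Fgf21, a hormone that liver releases in metabolic stress, had 15.2, 22.0 and 21.9 FPKM in HP liver and 12.5, 5.59 and 4.75 FPKM in HR liver. It was at most 1.94 FPKM in any eWAT library, and the tissue difference was -1.90 (adjusted p = 0.0165). Pdk4, the kinase that turns off pyruvate dehydrogenase, was 1.24 higher in HP liver and had a tissue difference of -1.47. Eci1, an isomerase of unsaturated fatty acid oxidation, had a tissue difference of -1.097. These 3 genes lost the call only without eWAT HR 1. Cpt1a, the gate of mitochondrial fatty acid entry, had 0.58 (adjusted p = 0.0572). The count of 8 was 5 without eWAT HP 2 or liver HP 2, 4 without eWAT HP 3, liver HR 2 or liver HR 3 and 0 without eWAT HR 1.

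Of 25 genes of glucose and insulin handling, 5 were negative and 3 positive, with a median of -0.29 over 11 libraries and 0.08 over 12. Gys2, glycogen synthase of liver, had 10.9, 10.4 and 13.1 FPKM in HP eWAT and 2.94, 0.693 and 4.28 FPKM in HR eWAT. In liver it had 76.1, 95.2 and 81.4 FPKM in HP and 101, 98.7 and 72.2 FPKM in HR, which overlap. Its tissue difference of 1.54 was called throughout (adjusted p = 0.00517). Pck1, which serves gluconeogenesis in liver and glycerol formation in fat, was lower in HP fat by 1.95 and had a liver change of -0.69 that did not pass, with a tissue difference of -1.26 (adjusted p = 0.0316). Khk, the kinase that starts fructose breakdown, had a tissue difference of -1.17. Pck1 and Khk each lost the call without several libraries. Irs2, an insulin receptor substrate, changed in the same direction in both tissues, by -1.14 in eWAT and -0.66 in liver, and its tissue difference of -0.48 did not pass (adjusted p = 0.148). The count of 8 was 4 without liver HP 2 or liver HR 3, 3 without liver HP 3, 2 without eWAT HP 3, and 1 without eWAT HR 1 or liver HR 2.

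Genes of cholesterol synthesis and uptake had mostly positive tissue differences. Of 23 tested genes, 10 were called positive and 1 negative, and the median tissue difference was 0.81 over 11 libraries and 0.83 over 12. The median was 0.47 in eWAT and -0.13 in liver, and 8 genes were called higher in HP in eWAT and none lower, while liver had 3 called higher and 3 lower. Insig1, which holds the sterol sensor in the endoplasmic reticulum (ER), had 206, 194 and 182 FPKM in HP eWAT and 82.0, 27.1 and 140 FPKM in HR eWAT. HP livers held 51.2, 59.0 and 53.3 FPKM and HR livers 61.7, 86.4 and 90.3 FPKM. HP and HR did not overlap in either tissue and stood in opposite order, with a tissue difference of 1.37 (SE 0.28, adjusted p = 0.0149). Msmo1, a sterol demethylase, had 23.9, 24.96 and 27.3 FPKM in HP eWAT and 9.36, 5.92 and 11.5 FPKM in HR eWAT, with overlapping liver groups and a tissue difference of 1.34 (adjusted p = 0.00731). Lss, which closes the sterol rings, had 1.53, 0.699 and 2.14 FPKM in HP liver and 3.32, 4.47 and 3.97 FPKM in HR liver. It was lower in HP liver and had a change of 0.45 in eWAT that did not pass, with a tissue difference of 1.49 (adjusted p = 0.0192).

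Hmgcs1, the cytosolic synthase early in the sterol pathway, was the negative member, at -0.74 (adjusted p = 0.0338). Insig1 and Msmo1 lost the call only without eWAT HR 1, and Lss and Hmgcs1 without further libraries. The count of 11 was 6 without eWAT HP 3, 5 without liver HR 2 and 1 without eWAT HR 1. A sterol regulatory element was searched as TCACNCCAC on both strands in the 250 bases before the start site of RefSeq promoters. A gene counted if any of its promoters held the motif. The element was in 1 of the 17 genes of the list with a promoter, Hmgcs1, and in 1.22% of 27025 genes with a promoter. The box CCAAT, searched in the same way, was in 16 of the 17, in 37.5% of all genes with a promoter and in 40.8% of the tested ones. It was in all 7 called genes with a promoter and in 8 of 9 tested genes that were not called. Motifs here and below were chosen after the values had been seen, and a match is a description only.

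Chaperones of the ER had positive tissue differences. Of 26 tested genes of ER folding and the unfolded protein response, 9 were called positive and none negative, with a median of 0.70 over 11 libraries and 0.82 over 12. The median change was 0.28 in eWAT, where 7 genes were called higher in HP and 1 lower, and -0.44 in liver, where 2 were higher and 5 lower. Hsp90b1, the ER member of the heat shock protein 90 family, had 112, 118 and 111 FPKM in HP eWAT and 76.9, 113 and 86.6 FPKM in HR eWAT. Values in HP livers were 62.4, 35.8 and 50.6 FPKM, and HR livers had 71.6, 129 and 88.7 FPKM. The liver groups did not overlap, and in fat only HR 2 reached the HP level. Its tissue difference was 1.41 (SE 0.32, adjusted p = 0.0199). Dnajb11, a co-chaperone, had 33.9, 30.5 and 24.98 FPKM in HP liver and 44.7, 49.7 and 44.7 FPKM in HR liver, with a tissue difference of 1.11 (adjusted p = 0.00598) that was called throughout. Canx, a membrane chaperone for glycoproteins, and Sdf2l1, another luminal co-chaperone, had tissue differences of 1.44 and 1.37 (adjusted p = 0.0225 and 0.04996), of which the second lies at the threshold.

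Several members hold the ER stress response element, which is CCAAT and CCACG with 9 bases of any kind between them and so contains the CCAAT box. On either strand it lay in the 250 bases before the start of 9 of the 26 list genes with a RefSeq promoter. The share was 0.130% over all 27025 genes with a promoter and 0.169% over the tested ones. The element was in 6 of the 9 called genes and in 3 of the 15 that were tested and not called. The list was written from knowledge of this response, so the element is no independent property of it. The windows of the 6 called genes are printed from RefSeq for GRCm38.p6 because their letters can be compared beside the values, each 5′ to 3′ on the strand of the gene, with the element in capitals (in Calr it reads on the opposite strand). Hspa5 is at chr2:34771995-34772073 on the plus strand, Hsp90b1 at chr10:86705608-86705686 on the minus strand and Calr at chr8:84847045-84847123 on the minus strand. Canx is at chr11:50325770-50325848 on the minus strand, Pdia6 at chr12:17266461-17266539 on the plus strand and Dnajc3 at chr14:118937797-118937875 on the plus strand. All 6 windows lie upstream of the start site. Hsp90b1 holds the element at another place as well.
Hspa5: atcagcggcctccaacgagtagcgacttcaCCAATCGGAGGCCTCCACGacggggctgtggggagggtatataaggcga
Hsp90b1: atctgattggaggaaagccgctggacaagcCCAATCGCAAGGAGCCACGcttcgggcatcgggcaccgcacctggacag
Calr: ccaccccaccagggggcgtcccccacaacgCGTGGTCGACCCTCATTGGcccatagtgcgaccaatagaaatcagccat
Canx: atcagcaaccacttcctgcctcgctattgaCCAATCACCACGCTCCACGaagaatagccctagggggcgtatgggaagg
Pdia6: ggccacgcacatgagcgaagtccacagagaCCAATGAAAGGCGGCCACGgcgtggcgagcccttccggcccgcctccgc
Dnajc3: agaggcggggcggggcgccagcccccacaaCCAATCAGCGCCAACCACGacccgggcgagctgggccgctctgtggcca

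These genes were chosen for the element, after their values had been seen. Hspa5, the ER chaperone BiP, had 319, 298 and 288 FPKM in HP eWAT and 215, 313 and 236 FPKM in HR eWAT, and 252, 195 and 181 FPKM in HP liver and 263, 406 and 304 FPKM in HR liver. The order of HP and HR was opposite in the tissues apart from HR 2, with a tissue difference of 1.04 (adjusted p = 0.0239). Calr, a calcium-binding chaperone, Pdia6, a disulfide isomerase, and Dnajc3, a co-chaperone, had tissue differences of 0.90, 0.74 and 0.92 (adjusted p = 0.0186, 0.0210 and 0.0274). Pdia6 and Dnajc3 were called lower in HP liver (-0.55 and -0.77) and Calr higher in HP fat (0.58). Creld2, Syvn1 and Derl3 held the element and were not called, at 1.12, 0.06 and 0.28 (adjusted p = 0.0881, 0.883 and 0.731). The count of 9 was 5 without eWAT HP 3, 4 without liver HR 2 and 1 without eWAT HR 1, and none was called without liver HP 2 and HP 3, which held muscle transcripts.

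Cytosolic heat shock proteins were mixed, with 4 of 17 positive and 2 negative. Hsph1 and Dnaja1, cytosolic chaperones, had 1.21 and 0.70, while the small heat shock proteins Hspb1 and Cryab had -1.502 and -0.76. Hspb1 had 27.4, 32.0 and 25.1 FPKM in HP liver and 14.2, 8.16 and 8.34 FPKM in HR liver, with overlapping eWAT groups. The inducible Hspa1b had -0.13 (adjusted p = 0.836). The count of 6 was 0 without eWAT HR 1, and 1 or 2 without each other library except liver HP 1 and liver HR 1.

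Lysosomal genes made up the list with the most positive calls among the 34 lists. Of 43 tested, 16 were positive and none negative, with a median tissue difference of 0.54 over 11 libraries and 1.07 over 12. The median change was 0.60 in eWAT, with 25 genes called higher in HP and 1 lower, and 0.12 in liver, with 2 higher and 1 lower. Gla, which cleaves terminal galactose from glycolipids, had 20.7, 21.2 and 27.9 FPKM in HP eWAT and 6.40, 1.75 and 7.74 FPKM in HR eWAT. HP livers held 1.37, 1.13 and 1.21 FPKM and HR livers 0.994, 1.54 and 1.197 FPKM, which overlap, and its tissue difference was 1.58 (SE 0.22, adjusted p = 0.00275). Atp6v0d2, a subunit of the proton pump found in osteoclasts and macrophages, had 165, 164 and 196 FPKM in HP eWAT and 46.4, 6.29 and 59.9 FPKM in HR eWAT. It was at 2.12 to 3.38 FPKM in all 6 livers, and the tissue difference was 1.57 (adjusted p = 0.00276). Gla and Atp6v0d2 were called throughout.

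Lipa, the acid lipase that frees cholesterol and fatty acids in lysosomes, and Atp6v1b2, another pump subunit, had tissue differences of 1.45 and 1.11 and lost the call only without eWAT HR 1. The count of 16 was 10 without liver HP 2 or liver HR 3, 9 without eWAT HP 3 or liver HR 2 and 3 without eWAT HR 1. The lysosomal gene network element was searched as TCACGTGA on both strands in the same windows. It was in 5 of the 32 list genes with a promoter, in 0.907% of all genes with a promoter and in 1.98% of the tested ones. It was in 2 of 9 called genes, Gla and Atp6v1a, and in 3 of 22 tested genes that were not called. The 2 called genes are printed with Ctsd, a protease that was not called, to show that the element is in both kinds. The windows, from RefSeq, are upstream of the start on the minus strand of GRCm38.p6, with the element in capitals, at chrX:134601196-134601255 (1 of 2 matches in Gla), chr16:44139354-44139421 (Atp6v1a) and chr7:142387889-142387956 (Ctsd).
Gla: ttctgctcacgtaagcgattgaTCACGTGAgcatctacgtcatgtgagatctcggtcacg
Atp6v1a: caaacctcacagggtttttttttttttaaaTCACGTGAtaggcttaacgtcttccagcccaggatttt
Ctsd: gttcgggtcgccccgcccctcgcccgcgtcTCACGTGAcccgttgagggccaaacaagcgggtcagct
Atp6v1a, a subunit of the proton pump, had 123, 135 and 160 FPKM in HP eWAT and 58.5, 52.7 and 79.9 FPKM in HR eWAT. Its liver groups overlapped, and the tissue difference was 1.09 (adjusted p = 0.0207). Ctsd had 3201, 2561 and 3453 FPKM in HP eWAT and 1960, 356 and 2168 FPKM in HR eWAT. It had a tissue difference of 0.42, which did not pass (adjusted p = 0.178).

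Macrophage transcripts rose in HP fat. Of 25 tested macrophage genes, 20 were called higher in HP in eWAT over 5 libraries and 2 in liver, and 4 had a called tissue difference, all positive. The median tissue difference was 0.81 over 11 libraries and 1.47 over 12. Msr1, a scavenger receptor, had 27.6, 30.9 and 41.7 FPKM in HP eWAT and 8.22, 4.44 and 9.98 FPKM in HR eWAT. HP livers held 2.68, 2.22 and 2.49 FPKM and HR livers 1.83, 2.05 and 1.85 FPKM. HP stood above HR in both tissues without overlap, although the liver change of 0.25 was not called, with a tissue difference of 1.503 (adjusted p = 0.00374) that was called throughout. Adgre1, the macrophage antigen F4/80, had 213, 195 and 259 FPKM in HP eWAT and 63.9, 23.4 and 102 FPKM in HR eWAT. Values in HP livers were 1.58, 0.876 and 1.21 FPKM, and HR livers had 0.597, 4.81 and 1.93 FPKM, and the tissue difference was 1.89 (adjusted p = 0.0431). Mpeg1, a pore-forming protein, and Cybb, a subunit of the phagocyte oxidase, had tissue differences of 1.37 and 1.16. Cd68 rose in both tissues, by 1.69 in eWAT and 1.26 in liver, and its tissue difference of 0.43 did not pass (adjusted p = 0.565).

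The 6 macrophage markers summed to 3133 to 4303 FPKM in HP eWAT, and to 1499, 466 and 1849 FPKM in HR eWAT. In liver they summed to 62.3 to 95.3 FPKM in HP and 40.8 to 117 FPKM in HR. No marker was at 0 in any of these libraries. The part of these markers in the lysosomal and lipid-handling results was not tested. The macrophage count of 4 was 2 without eWAT HP 2, liver HP 2 or liver HR 3, 1 without eWAT HP 3, eWAT HR 1 or liver HR 2, and 11 without liver HR 1. Of 9 tested Kupffer cell genes, which mark resident liver macrophages, Folr2 alone was called (1.36, adjusted p = 0.0307), a gene that fat macrophages also express. The list held no call without eWAT HP 3, eWAT HR 1, eWAT HR 3, liver HP 3 or liver HR 2, 2 calls without liver HP 1 or liver HR 3 and 3 without liver HR 1. Of 20 tested genes of lipid-associated macrophages, 13 were called higher and 2 lower in HP in eWAT over 5 libraries. In liver 9 were called higher in HP and none lower. The tissue difference was called positive in 3 and negative in 3, with a median of 0.40 over 11 libraries and 1.05 over 12. The positive ones were Atp6v0d2, Lipa and Plin2, and the negative ones Fabp4, Apoe and Acp5, with 2 calls left without eWAT HR 1.

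Signalling genes of leukocytes followed. Of 17 tested cytokine and chemokine genes, 5 were positive and 1 negative. Il1rn, the antagonist of the interleukin-1 receptor, had 56.9, 58.2 and 74.3 FPKM in HP eWAT and 14.0, 3.82 and 17.7 FPKM in HR eWAT. HP livers held 4.18, 6.85 and 5.05 FPKM and HR livers 5.66, 6.26 and 4.75 FPKM. The fat groups were far apart and the liver groups overlapped, with a tissue difference of 1.98 (adjusted p = 0.00185). Ccl9, a chemokine of myeloid cells, had 1.34 (adjusted p = 0.00267), and both were called throughout. Tnfrsf1b, a receptor of tumour necrosis factor, had 1.00, and Cxcl9, a chemokine induced by interferon gamma, had -1.09. The count of 6 was 3 without liver HP 2, liver HP 3, liver HR 2 or liver HR 3, and 2 without eWAT HP 3 or eWAT HR 1.

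**Figure D4:**
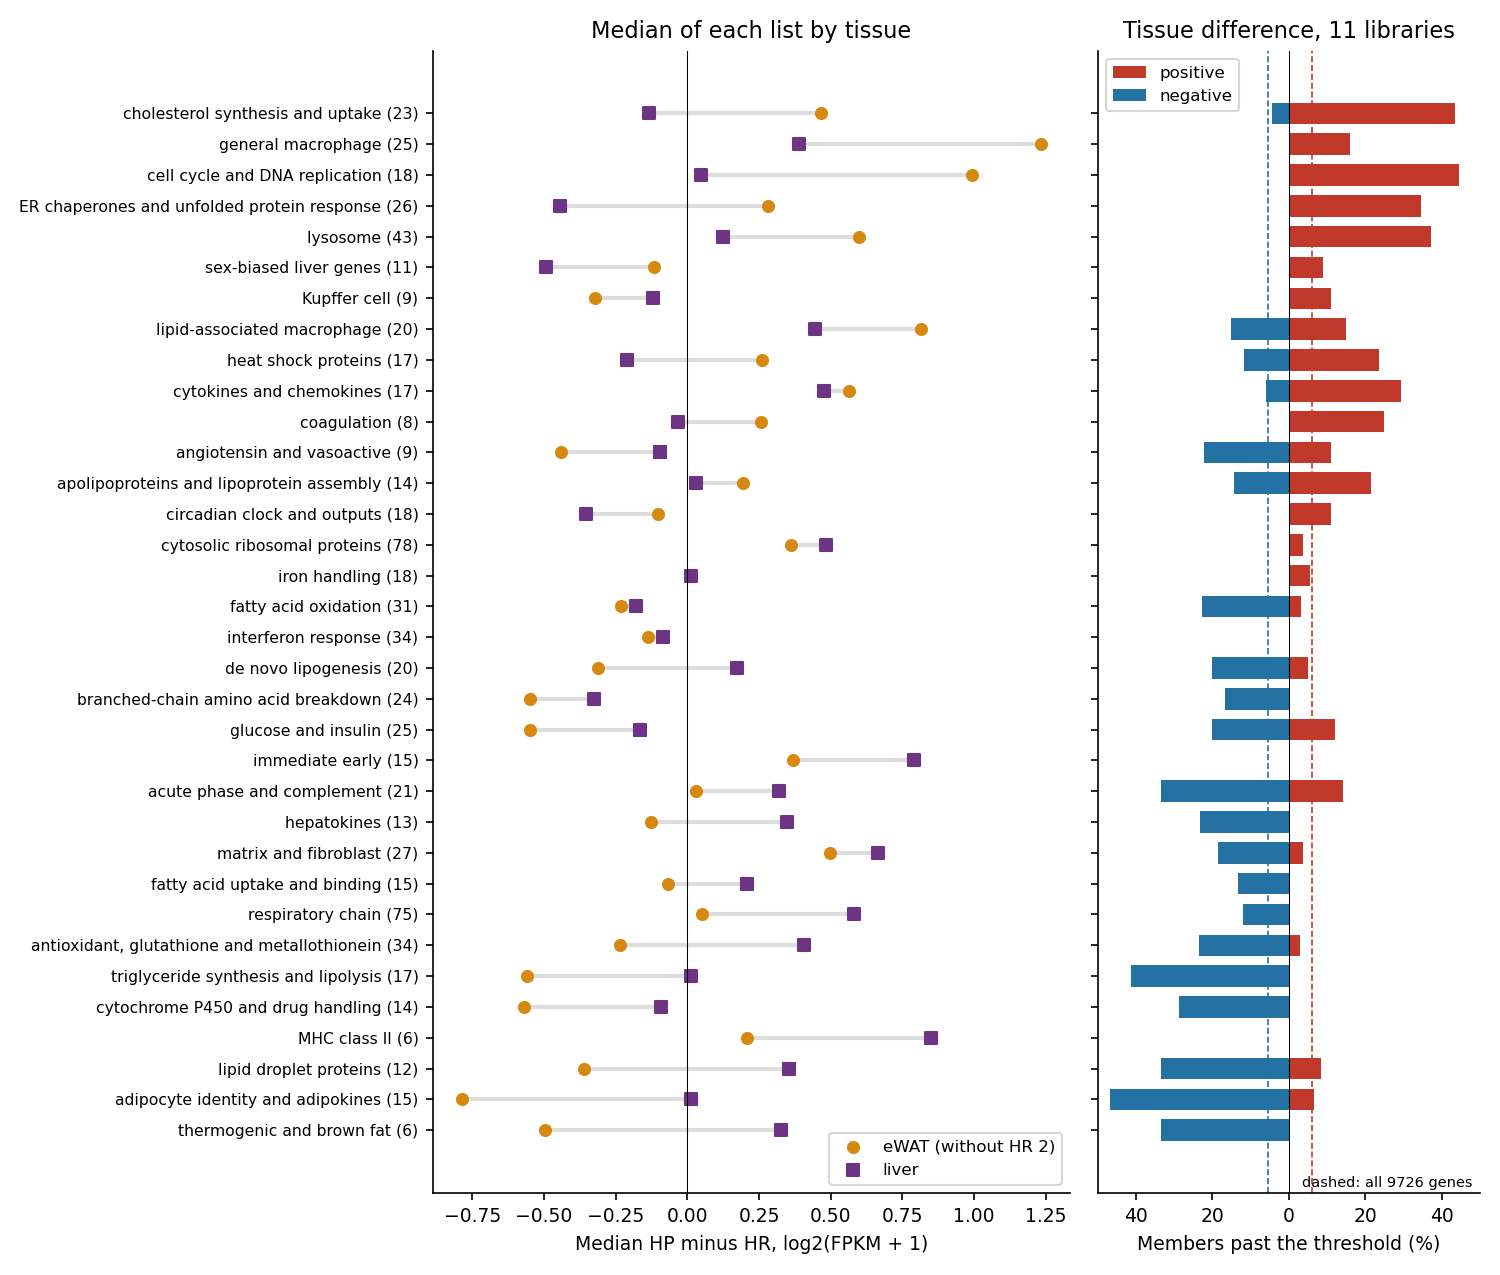
Left, the median HP minus HR of the tested members of each gene list, as log2(FPKM + 1), in eWAT without HR 2 (orange circles) and in liver (purple squares). Right, the percentage of members called positive (red) or negative (blue) over 11 libraries, with dashed lines at 6.23% and 5.28% for all genes. The cell cycle, cholesterol, lysosome and ER chaperone lists have the largest positive shares (44.4%, 43.5%, 37.2% and 34.6%), and further lists also exceed the positive line.

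Genes of the cell cycle and DNA replication had positive tissue differences. Of 18 tested cell cycle genes, 8 were positive and none negative, with a median of 0.78 over 11 libraries and 0.58 over 12. The median was 0.99 in eWAT, with 13 genes called higher in HP, and 0.05 in liver, with 3 higher and 2 lower. Beside Tk1, Rrm2, a subunit of ribonucleotide reductase, had 8.35, 7.46 and 8.94 FPKM in HP eWAT and 2.32, 7.24 and 2.57 FPKM in HR eWAT. In the livers it was at 0.864 to 1.38 FPKM. Without HR 2 the fat groups were far apart, and the tissue difference was 1.45 (adjusted p = 0.00312). Rrm1, the other subunit, had 1.09 and was called throughout with Tk1 and Rrm2. Mcm6, a subunit of the replicative helicase, had 1.11 and lost the call only without eWAT HR 1. The list had 36 genes, of which 18 did not reach the level required in both tissues. The count of 8 was 5 without eWAT HR 3 or liver HR 2 and 4 without eWAT HR 1.

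Antioxidant and glutathione genes had mostly negative tissue differences. Of 34 tested, 8 were negative and 1 positive, with a median of -0.56 over 11 libraries and -0.22 over 12. Their median was -0.24 in eWAT and 0.41 in liver, where 11 were called higher in HP and none lower. Besides Gstm2, Gstm1 had 827, 1197 and 1222 FPKM in HP liver and 406, 407 and 396 FPKM in HR liver. In eWAT it had 263, 272 and 249 FPKM in HP and 449, 142 and 278 FPKM in HR. HP livers stood far above HR livers and the fat groups overlapped through HR 2, with a tissue difference of -1.83 (adjusted p = 0.00374). Gstt1, of the theta class, had -1.44 (adjusted p = 0.00758) and was called throughout with Gstm1 and Gstm2. Mgst3, a microsomal glutathione transferase, had -2.25 and lost the call without eWAT HR 1. The metallothioneins Mt1 and Mt2 varied widely within groups, Mt2 from 45.2 to 194 FPKM in HP liver and from 14.6 to 212 FPKM in HR liver, and did not pass (adjusted p = 0.624 and 0.686). The count of 9 was 3 without eWAT HR 1.

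Of 14 tested cytochrome P450 and drug handling genes, 4 were negative. Cyp2e1, which oxidises ethanol and acetone, had 106, 111 and 65.3 FPKM in HP eWAT and 679, 136 and 573 FPKM in HR eWAT. HP livers held 7481, 6038 and 5761 FPKM and HR livers 10131, 8813 and 7742 FPKM. HP fat fell by 2.76 relative to HR over 5 libraries, while the liver change of -0.47 did not pass (adjusted p = 0.1495), and the tissue difference was -2.29 (adjusted p = 0.00209). Fmo1, a flavin monooxygenase, was lower in HP fat and higher in HP liver (tissue difference -1.2), and like Cyp2e1 was called throughout. Abcc3, an exporter of conjugates, and Cyp2d22 had -0.79 and -0.76 and were not. The count of 4 was 2 without eWAT HR 1 or liver HR 2.

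Acute phase and complement genes split. Of 21 tested, 7 were negative and 3 positive, with a median of -0.44 over 11 libraries and 0.29 over 12. Lcn2, the siderophore-binding lipocalin, had 12.4, 38.5 and 33.2 FPKM in HP liver and 3.51, 2.15 and 5.23 FPKM in HR liver. In eWAT it had 24.0, 24.2 and 12.2 FPKM in HP and 39.9, 76.5 and 19.2 FPKM in HR, which overlap. Its tissue difference of -3.06 was the largest negative one named (SE 0.63, adjusted p = 0.0141). C2, the complement component, had 21.2, 25.5 and 22.0 FPKM in HP eWAT and 57.3, 16.7 and 44.5 FPKM in HR eWAT. Values in HP livers were 115, 293 and 115 FPKM, and HR livers had 86.8, 42.9 and 49.1 FPKM, and its tissue difference was -2.57 (adjusted p = 0.0113). Orm2 had -1.87, and Saa3, an amyloid A protein of fat and macrophages, had -0.99 (adjusted p = 0.233). Lcn2, C2 and Orm2 lost the call only without eWAT HR 1. Of 8 tested coagulation factors 2 were positive, F7 (1.66) and F10 (0.92), and neither passed without eWAT HR 1. The acute phase count of 10 was 2 without eWAT HR 1.

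Matrix genes were called higher in HP in both tissues, 12 of 27 in each, with 5 lower in eWAT and 1 lower in liver. Of the 27, 5 had a negative tissue difference and 1 a positive one, with a median of -0.46 over 11 libraries and 0.08 over 12. Sparc, a collagen-binding matrix protein, had 2456, 2486 and 2761 FPKM in HP eWAT and 3713, 833 and 4429 FPKM in HR eWAT. HP livers held 23.8, 29.8 and 36.0 FPKM and HR livers 9.38, 8.12 and 13.2 FPKM. Without HR 2 it was opposed between tissues, with a tissue difference of -2.13 (adjusted p = 0.00179). Fn1, fibronectin, was opposed the other way, at 152, 126 and 128 FPKM in HP eWAT and 60.0, 16.7 and 98.8 FPKM in HR eWAT. Values in HP livers were 82.4, 69.2 and 82.4 FPKM, and HR livers had 126, 139 and 133 FPKM, without overlap in either tissue (tissue difference 1.56, adjusted p = 0.00500). Col4a2, a basement membrane collagen, had -1.16 and was called throughout with Sparc and Fn1, and Timp3, an inhibitor of matrix proteases, had -1.34. Col1a1 rose in liver by 1.78, and its tissue difference of -1.14 did not pass (adjusted p = 0.173). The count of 6 was 3 without eWAT HR 1 and 13 without liver HP 1.

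Endothelial markers were negative as well. Of 13 tested, 5 were negative and none positive, with a median of -0.86 over 11 libraries and -0.26 over 12. Over 12 libraries limma called none, and 1 had an unadjusted p under 0.05. The count of 5 was 3 without liver HR 2, 2 without eWAT HP 3 and 0 without eWAT HR 1. The 14 markers in the table summed to 533 to 648 FPKM in HP eWAT, and to 1133, 289 and 863 FPKM in HR eWAT. In liver they summed to 80.4 to 97.2 FPKM in HP and 61.9 to 81.1 FPKM in HR.

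The respiratory chain was a liver difference. Of 75 tested genes, 43 were called higher in HP liver and none lower, while eWAT had 3 higher and none lower. The median change was 0.58 in liver and 0.05 in eWAT, and the median tissue difference was -0.53 over 11 libraries and -0.38 over 12. Of the 75, 9 had a called tissue difference, all negative. The count was 6 after rescaling to an equal sum, 12 after shifting to an equal median ratio and 24 after quantile normalization. It was 12 after correction for transcript length and GC content. In that order, the median tissue difference was -0.34, -0.60, -0.57 and -0.31. Ndufa3, a subunit of complex I, had 360, 583 and 400 FPKM in HP liver and 246, 168 and 229 FPKM in HR liver. In eWAT it had 199, 167 and 156 FPKM in HP and 289, 67.3 and 158 FPKM in HR, which overlap, and its tissue difference was -1.35 (adjusted p = 0.0339). Uqcr11 of complex III, and Ndufv3 and Ndufs5 of complex I, had -1.22, -1.11 and -0.98. In all 4 genes liver HP 2 was the highest HP library and liver HR 2 the lowest HR library.

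The count was 0 without eWAT HP 2, eWAT HP 3, eWAT HR 1, liver HP 2 or liver HR 2, 2 without liver HR 3 and 5 without eWAT HP 1 or liver HP 3. It was 16 without liver HR 1 and 28 without eWAT HR 3. Skeletal muscle markers, 7 genes in the table, summed to 0.453, 120 and 25.7 FPKM in the HP livers and to 0.641, 0.302 and 0.243 FPKM in the HR livers. In liver HP 2 the myosin gene Myh4 had 13.2 FPKM, against 0.00763 FPKM or less in the HR livers, and the part of muscle RNA in this list was not tested. Cox7a1, a complex IV subunit of muscle and brown fat, had 7.29, 18.4 and 13 FPKM in HP liver and 2.87, 1.27 and 2.22 FPKM in HR liver. Its eWAT values were 13.8, 12.0 and 13.9 FPKM in HP and 64.9, 2.88 and 8.98 FPKM in HR. The tissue difference was -2.96 (SE 0.79, adjusted p = 0.0342) and lost the call without 7 of the 11 libraries. Cox7a1 and Adrb3 were the 2 called genes of 6 tested on the thermogenic list, whose count was 0 without eWAT HP 2, eWAT HP 3, eWAT HR 1, liver HP 2, liver HP 3, liver HR 2 or liver HR 3. Cidea, another droplet protein of brown fat, had -2.83 with an adjusted p of 0.108.

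Cytosolic ribosomal proteins rose in both tissues, 20 of 78 in eWAT and 29 of 78 in liver. As deposited, 3 had a called tissue difference, Rpl3 (0.80), Rpl5 (0.68) and Rpl13a (0.54), a share below that of all genes. The count was 8 after rescaling to an equal sum and 12 after correction for transcript length and GC content, all positive. Of all 9726 genes, 875 and 740 were positive under these settings, so the relation to all genes depended on the processing. The list median was -0.11 as deposited, 0.09 after rescaling to an equal sum and 0.17 after correction for transcript length and GC content. None was called without eWAT HP 3, eWAT HR 1, eWAT HR 3, liver HP 2 or liver HR 3, and 1 without eWAT HP 2, liver HP 3 or liver HR 2.

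Genes outside these lists were among the largest. Lcp1, an actin-bundling protein of leukocytes, had 269, 252 and 338 FPKM in HP eWAT and 75.2, 19.5 and 112 FPKM in HR eWAT. HP livers held 19.8, 14.7 and 15.9 FPKM and HR livers 19.4, 29.98 and 28.3 FPKM, which overlap, and its tissue difference was 2.20 (adjusted p = 0.00226). Dnmt3a, a DNA methyltransferase, had 67.0, 79.3 and 106 FPKM in HP eWAT and 21.7, 8.56 and 26.9 FPKM in HR eWAT, and its tissue difference was 1.99 (adjusted p = 0.00275). Lcp1 and Dnmt3a were called throughout. Pik3ap1, an adaptor of phosphoinositide 3-kinase signalling, was higher in HP fat (1.18) and lower in HP liver (-1.11), with a tissue difference of 2.28 (adjusted p = 0.00731).

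Egfr, the epidermal growth factor receptor, differed in liver alone. It had 18.1, 10.9 and 8.42 FPKM in HP liver and 59.7, 58.1 and 46.3 FPKM in HR liver. HP fat held 11.2, 15.5 and 15.03 FPKM and HR fat 10.8, 2.57 and 17.3 FPKM, which overlap, and its tissue difference was 2.11 (SE 0.37, adjusted p = 0.00731). Lifr, the receptor of leukaemia inhibitory factor, had 23.2, 13.9 and 11.9 FPKM in HP liver and 45.5, 56.0 and 36.6 FPKM in HR liver. It was the only called gene of 11 tested on the sex-biased liver list (1.36, adjusted p = 0.0255). That list had no call without eWAT HP 2, eWAT HP 3, eWAT HR 1, liver HP 2 or liver HR 2, and 4 without liver HP 1. Gdf15, a stress hormone, had 37.9, 26.0 and 25.8 FPKM in HP liver and 6.83, 7.02 and 7.42 FPKM in HR liver. Its eWAT groups overlapped, and the tissue difference was -1.46 (adjusted p = 0.0161). With Fgf21 and Angptl6 (-1.0) it made up the 3 negative calls among 13 tested hepatokines, of which none was left without eWAT HR 1.

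Ifi27l2a, an interferon-induced gene, had 801, 626 and 658 FPKM in HP eWAT and 1999, 317 and 1374 FPKM in HR eWAT. Values in HP livers were 14.6, 26.8 and 18.5 FPKM, and HR livers had 9.18, 8.08 and 6.89 FPKM, without overlap, and its tissue difference was -2.44 (adjusted p = 0.00179), called throughout. Adamtsl2, a matrix glycoprotein, and Dcdc2a, a microtubule-binding protein, had tissue differences of -2.44 and -2.56 (adjusted p = 0.0144 and 0.0216) with most of the change in fat. Both lost the call without eWAT HR 1, as did Egfr, Pik3ap1 and Gdf15. Lifr and Angptl6 lost it without further libraries.

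Several lists held few calls that turned on single libraries. Fatty acid uptake had Fabp4 and Gpihbp1, the anchor of lipoprotein lipase (-1.31), among 15 tested. Its count of 2 was 4 without eWAT HP 1, and 1 without eWAT HP 3, eWAT HR 1, liver HP 1, liver HP 2 or liver HR 2. Branched-chain amino acid breakdown had 4 negative calls of 24, among them Bckdha (-0.94), Mcee (-0.75) and Acat1 (-0.64). The count of 4 was 2 without any of the eWAT HP libraries, 1 without liver HP 2 or liver HR 2 and 0 without eWAT HR 1. Among 14 tested genes of apolipoproteins and lipoprotein assembly, Apobec1 (1.15), Apoa2 (0.87) and Lrp1 (0.74) were positive and Apoc3 (-1.202) and Apoe (-1.05) negative. That count of 5 was 3 without eWAT HP 2, liver HP 2 or liver HP 3, 2 without liver HR 2 or liver HR 3, 1 without eWAT HP 3 and 0 without eWAT HR 1. The circadian list had Bhlhe41 (1.28), called throughout, and Bhlhe40 (0.88), both repressors of the clock, of 18. Bhlhe41 was the call that remained without eWAT HP 1, HP 2, HP 3, HR 1 or HR 3 or liver HP 2, HR 2 or HR 3. Iron handling had Steap3 (0.94), a ferric reductase, of 18, a share near that of all genes. Its count was 0 without eWAT HP 3, 2 without eWAT HP 1, eWAT HP 2, liver HP 3 or liver HR 3 and 3 without liver HP 1. The angiotensin list had Agt and Npr1, the receptor of atrial natriuretic peptide (-0.80), as negative and Anpep, an aminopeptidase (1.31), as positive calls of 9. Its count of 3 was 1 without eWAT HP 1, HP 2, HP 3 or HR 1 or liver HP 2, HR 2 or HR 3.

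No interferon response gene of 34, no MHC class II gene of 6 and no immediate early gene of 15 was called by limma, and 6, 0 and 2 of them had an unadjusted p under 0.05. Their smallest p-values belonged to Bst2 and Oas1a (-0.76 and 0.83, adjusted p = 0.0507 and 0.0569), to H2-DMa and H2-Eb1 (-0.58 and -0.93, adjusted p = 0.205 and 0.288), and to Jun and Atf3 (-1.48 and 0.85, adjusted p = 0.0706 and 0.0729). Leaving out a single library gave at most 2 calls in the interferon and immediate early lists and none in the MHC list. Cd36, a fatty acid transporter, and Angptl4, an inhibitor of lipoprotein lipase, had -0.32 and -0.53 and did not pass (adjusted p = 0.296 and 0.0981). Lep, Adipoq, Slc2a4, G6pc, Gpnmb, Trem2, Timp1, Mki67 and Irs1 did not reach 1 FPKM in enough libraries of both tissues and were not tested.

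Leaving out both livers with muscle transcripts, HP 2 and HP 3, leaves 1 HP liver that is assumed to vary like the other groups. Calls made were then 4 of 11 in cholesterol synthesis, 3 of 16 in the lysosome list, 3 of 8 in the cell cycle list, 3 of 8 in adipocyte identity, 3 of 7 in triglyceride genes, 3 of 6 in lipid-associated macrophages and 2 of 5 in droplet proteins. The lists of antioxidant genes (of 9), acute phase genes (of 10), matrix genes (of 6), cytokines (of 6), macrophage genes (of 4) and cytochrome P450 genes (of 4) had 2 each. Fatty acid synthesis (of 5), glucose handling (of 8), hepatokines (of 3), the angiotensin list (of 3) and fatty acid uptake (of 2) had 1 each, and 1 immediate early gene was called. None was left in fatty acid oxidation, branched-chain amino acid breakdown, ER chaperones, heat shock proteins, the respiratory chain, ribosomal proteins, coagulation, apolipoproteins, or the circadian, iron, Kupffer, sex-biased, thermogenic and endothelial lists. The part of muscle RNA in these lists was not tested.

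**Figure D5:**
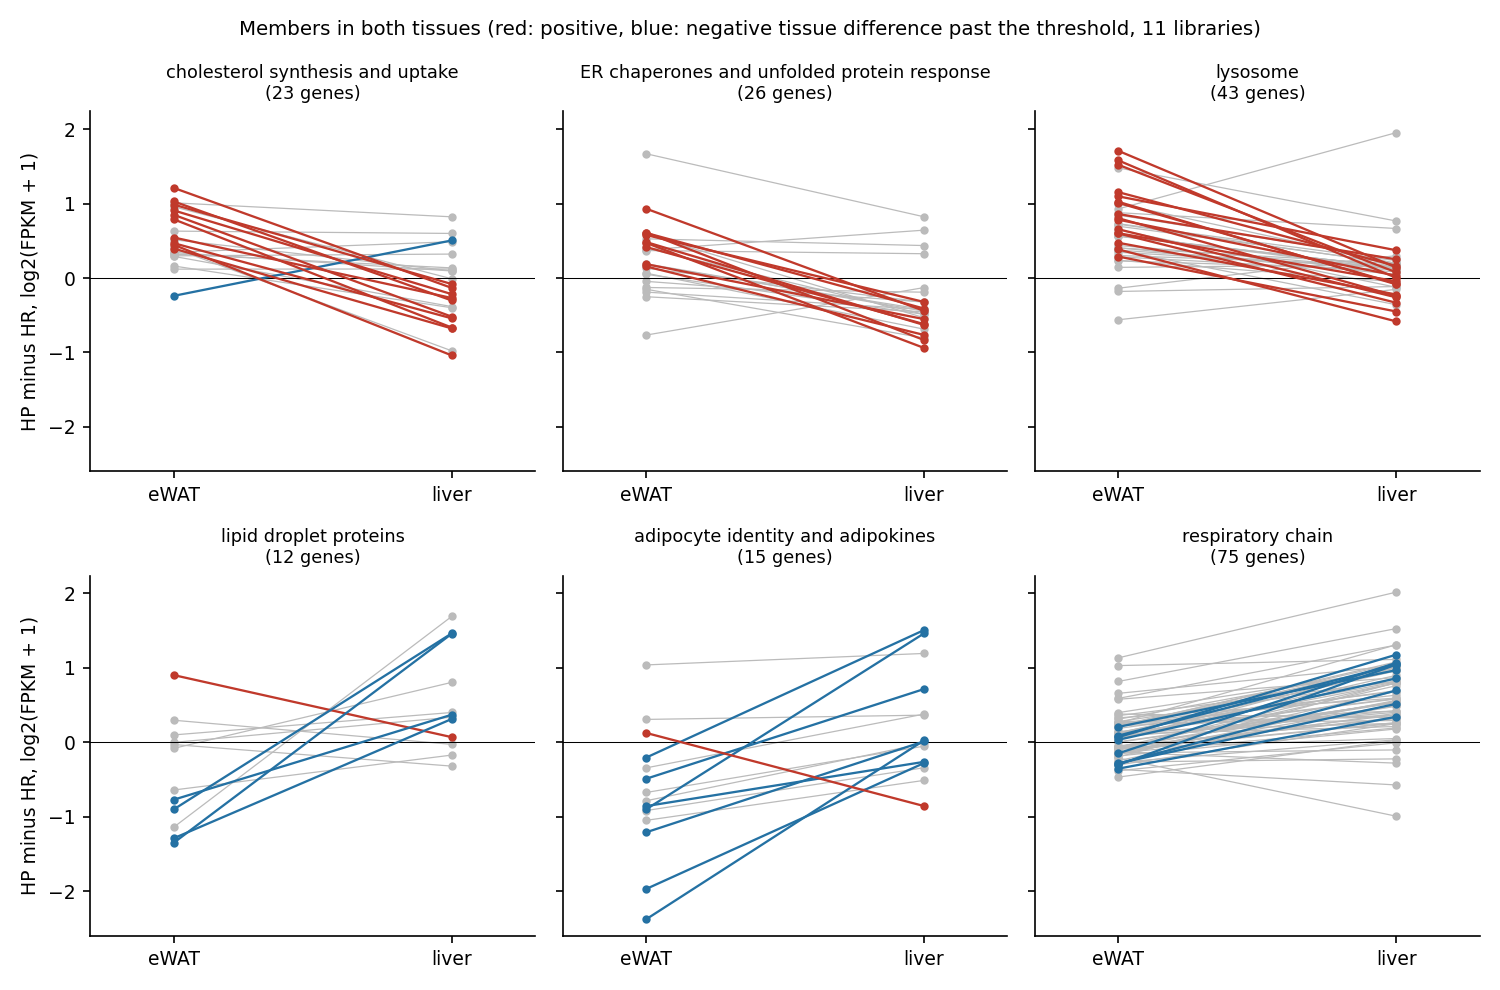
HP minus HR as log2(FPKM + 1) in eWAT without HR 2 and in liver for the tested members of 6 lists, with a line joining the values of each gene, red for called positive, blue for called negative and grey for not called over 11 libraries. Called cholesterol, ER chaperone and lysosome genes mostly slope down towards liver, and called genes of lipid droplets, adipocyte identity and the respiratory chain mostly slope up.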

How the data were processed

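Messenger RNA of eWAT and liver was sequenced after TRIzol extraction and TruSeq library preparation, per the labels' protocols. The authors deposited a table of FPKM values for 18 libraries. The tools named by the submitters' processing notes are STAR 2.4.0, Cufflinks 2.1.1 and CASAVA 1.8.2. Their roles, the genome build, the annotation and strandedness were not given in the sources used here. Antisense, overlapping and near-identical genes therefore cannot be told apart. Of 23474 identifiers, 22671 were named from GENCODE M21 and 803 kept their identifier. FPKM carries no total count, so the depth is unknown and no counting interval could be given. The steps of low values gave depths of 0.865 to 0.997 in liver relative to liver HR 3. In eWAT they gave 0.946 for HP 3, 1.098 for HR 1 and 0.943 for HR 2 relative to HR 3, and no clear step for HP 1 and HP 2.

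Values were compared on the log2(FPKM + 1) scale by limma 3.58.1 (R 4.3.3, variance trend, two-sided) over genes of at least 1 FPKM in at least 3 of 6 libraries of each tissue (12751 in eWAT, 10365 in liver and 9726 in both). The contrast was fitted over the 4 groups, which share an estimate of the spread per gene, and p-values were adjusted by Benjamini-Hochberg over all 9726 genes, with a threshold of 0.05. HP against HR was also fitted within each tissue. The scripts were tested on simulated data with known changes. Same-numbered libraries were not treated as pairs.

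The 34 gene lists and the 15 marker lists, the genes described and the tests were chosen with earlier results of these data known. Named genes were up to 10 of each sign in each fit with the largest difference, a mean of at least 5 FPKM in a group and a sign kept with each library left out, filled to 6 where fewer qualified and without predicted genes, up to 4 called members of each list, and 35 fixed genes. Some genes chosen by this rule are not reported here. The spermatid, epididymis, skeletal muscle and T and NK cell markers did not pass the filter in both tissues. Promoter sequences and positions are RefSeq's for GRCm38.p6, matched by symbol, and motifs were searched in the 250 bases upstream of the start. Figures were drawn with matplotlib 3.10.9.

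The alternatives were a pseudocount of 0.1 FPKM, other filters, 3 other scalings, no variance trend, a correction for transcript length and GC content, normal-diet libraries in the fit, a weight per tissue, each library left out in turn, and a block for the replicate number. Fits without eWAT ND 1 and list counts with libraries left out were added after seeing the data.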

Additional observations from a re-analysis of the deposited data

Results flagged for a closer look

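The tissue difference is itself a test of whether the HP minus HR change differs between eWAT and liver, and 12 genes passed it over 12 libraries and 1120 over 11. Over 12 libraries the positive genes were Zranb3 (2.86), Tk1 (2.38), Slc25a13 (2.23), Dlg3 (2.09), Cdk18 (1.97), Qpct (1.91) and Hmga1 (1.58). The negative genes were Agt (-2.48), Orm3 (-2.43), Cystm1 (-2.18), Art3 (-1.87) and Gstm2 (-1.72). Over 11 libraries the rule for named genes added Pik3ap1 (2.28), Lcp1 (2.20), Egfr (2.11), Dnmt3a (1.99) and Il1rn (1.98) on the positive side. On the negative side it added Lcn2 (-3.06), Cox7a1 (-2.96), Plin4 (-2.81), C2 (-2.57), Dcdc2a (-2.56), Adamtsl2 (-2.44), Ifi27l2a (-2.44) and Cfd (-2.40).

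Transcripts of other tissues appeared in genes that the comparison did not test. Prm1, Prm2, Tnp1 and Tnp2, expressed in spermatids, summed to 1738 FPKM in eWAT HP 1 and 11231 FPKM in eWAT HR 2, and were listed at 0 in every HP and HR liver. Epididymal genes summed to 1275 FPKM in eWAT HP 2, against at most 6.598 FPKM in the HR eWAT libraries. Nearly all of the sum in HP 2 was Crisp1 (1172 FPKM) and Adam7 (103 FPKM). Skeletal muscle genes summed to 120 FPKM in liver HP 2 and 25.7 FPKM in liver HP 3, against at most 0.641 FPKM in the HR livers.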

How the results depend on the processing

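Over 12 libraries the 12 calls became 29 with no filter on low values, 5 after quantile normalization, 5 with normal-diet libraries in the fit, 7 with a weight per tissue and 993 without eWAT HR 2 and HP 1, and 0 to 1120 with each library left out (0 without liver HR 3, 1120 without eWAT HR 2). Over 11 libraries the 1120 calls became 3 with normal-diet libraries in the fit, and 764 when eWAT ND 1 was also left out, which was chosen after seeing the data. Leaving out each library gave 130 to 1292. The cause of these shifts was not tested.

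Within eWAT, the 2 calls over 6 libraries became 0 with a pseudocount of 0.1 FPKM, with no filter, after quantile normalization, after shifting to an equal median ratio and with normal-diet libraries, and 0 to 1397 with each library left out. Over 5 libraries 1397 calls became 695 with no filter, 627 with normal-diet libraries, and 348 to 1124 with each library left out. In liver, 1068 calls became 113 with no filter, 644 after correction for transcript length and GC content, and 224 to 1342 with each library left out. Higher calls in HP liver were 70.7% of those made as deposited and 36.9% after rescaling to an equal sum. In eWAT over 5 libraries they were 58.4% as deposited, 43.1% after quantile normalization and 48.8% after shifting to an equal median ratio.

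The labels do not say that a shared number marks a shared animal. Deviations of same-numbered eWAT and liver libraries correlated at -0.116, -0.256 and 0.0437 in HP and 0.0621, 0.0160 and 0.0867 in HR, so the numbers were not taken to pair samples. With the replicate number within a diet group as a block, the calls were 0 over 12 libraries and 312 over 11. With it as a block over all groups they were 1 and 753. In the single tissues the block gave 0 over 6 eWAT libraries, 2342 over 5, and 635 in liver.

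For the named genes over 11 libraries, 2670 of 3300 values under the alternatives kept their direction and their side of the threshold, 602 no longer passed, 20 newly passed and 8 changed sign. Over 12 libraries 198 of 325 kept both, 124 no longer passed, 3 newly passed and none changed sign. Genes that changed sign were not called. Hspa1b had 0.055 after rescaling to an equal sum, 0.068 after correction for length and GC content and -0.40 to 0.14 with each library left out. Mt2 had 0.080 with the replicate block within a diet group, and -1.80 to 0.080 with each library left out. Fasn had -0.48 to 0.0083 with each library left out.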

Other observations

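Markers of further cell types were summed per library, and single genes carried most of several sums. B cell markers summed to 282 to 303 FPKM in HP eWAT and 100.1 to 369 FPKM in HR eWAT, and to 9.66 to 13.9 FPKM in HP liver and 5.51 to 6.43 FPKM in HR liver. Nearly all of this in eWAT, and most of it in liver, was Ighm, the heavy chain of immunoglobulin M, and Ms4a1 is listed at 0 in all of these libraries. Among the mast cell genes, Tpsb2, a tryptase, had 9.39, 6.56 and 13.3 FPKM in HP eWAT and 2.62, 0.211 and 2.54 FPKM in HR eWAT, without overlap. Cpa3, Mcpt4 and Cma1 also stood higher in every HP than in any HR eWAT library. Kit, on the same list, went the other way without overlap. It had 4.91, 4.76 and 3.92 FPKM in HP eWAT and 7.46, 6.21 and 5.02 FPKM in HR eWAT. Fibroblast progenitor markers summed to 658 to 698 FPKM in HP eWAT and 124 to 569 FPKM in HR eWAT. Markers of hepatic stellate cells and cholangiocytes summed to 72.0 to 137 FPKM in HP liver and 43.9 to 61.8 FPKM in HR liver, and most of each sum was Spp1, osteopontin, at 48.9, 73.1 and 109 FPKM in HP liver and 33.4, 27.9 and 37.4 FPKM in HR liver. The stellate cell marker Lrat is listed at 0 in all of these libraries. In liver the mesothelial list was nearly all Krt8 and Krt18, keratins that hepatocytes also express, and its sum is not given as a measure of mesothelial cells. These sums were not tested.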
